A study of Gallus gallus with 16 samples.

Results

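A set of 32 transcripts was selected on 3 measured differences in HD11 cells, because their RNA was lower after LPS and about as low when the cells had also received procyanidin B1 (PB1). Membership was decided on the signal of each library scaled to a total of 1000000 (scaled units below), as log2 values averaged over the libraries of a group. A protein-coding transcript (RefSeq NM or XM accession) had to reach 10 scaled units in at least 1 group, to be lower by at least 0.8 in both LPS and LPS + PB1 than in the untreated control (CTR), and to differ by at most 0.4 between LPS + PB1 and LPS. Of 6492 rows in the table, 5903 were NM or XM accessions and 4008 of these reached the level. Among the 4008, 183 were lower by 0.8 in LPS and 99 were lower in both groups. Of the 99, 16 were higher and 51 lower in LPS + PB1 than in LPS by more than 0.4, which left the 32. ZIC1, GRPR and HOX genes were to be left out, but none of those with a symbol met the other limits.

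The libraries came from HD11, an established chicken macrophage-like cell line, and each of the 4 groups had 4 libraries. CTR cells received PBS, LPS cells 100 ng/mL of lipopolysaccharide, a cell wall component of Gram-negative bacteria, and PB1 cells procyanidin B1, a plant flavan-3-ol dimer. LPS + PB1 cells received both, and the methods, which state it for the follow-up assays, place 12 h of PB1 at 100 μg/mL before the LPS. For the LPS the methods give 12 h and the labels 6 h, and for the group size the methods give 3 and the labels 4. The labels also place another compound, SeMC, in the medium of all groups at 100 μM. All groups were of a single cell line, and no source states that the 4 libraries were separate cultures, so SDs and p-values measure only the spread between these libraries. In bulk RNA, fewer cells of a type and less RNA per cell cannot be told apart.

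The reads behind the values numbered 4173991 to 4414947 per library. Of 35 macrophage marker genes, 6 were found among the rows with a symbol. Their summed signal was 988 to 1456 scaled units in CTR, 1209 to 1657 in LPS, 1143 to 1267 in PB1 and 1135 to 2213 in LPS + PB1. CTSD, a lysosomal protease, made up most of it, and the defining markers CYBB and MRC1 lay at 3 reads or fewer in every library. By contrast, 8 of 24 fibroblast and matrix markers were found, and these summed to 97073 to 109173 in CTR 90233 to 111186 in LPS, 73404 to 77016 in PB1 and 74832 to 90044 in LPS + PB1. The part of these markers in the results below was not tested. Replicates 1 and 2 stood apart from replicates 3 and 4 most in LPS and in LPS + PB1, and less in CTR. The deviation of a pair's mean from its group mean, on the log2 scale, had an SD over transcripts of 0.24 in LPS and 0.29 in LPS + PB1. It was 0.19 in CTR and 0.14 in PB1, against 0.13 to 0.16 for a library's deviation from the mean of its pair. The 2 kinds of SD are not on an equal footing, because a mean of 2 libraries varies less than a single library. A value near 0.14 therefore does not show that the pairs were alike. Members are therefore also described within the first pair (replicates 1 and 2) and the second pair (replicates 3 and 4).

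Of the 32 members, 7 had a gene symbol, all of them curated transcripts, and positions below are from the RefSeq annotation of GRCg7b: LRRN1, SOX11, GPR37, NES, MBOAT1, PLK1 and SNTB1. The other 25 are predicted transcripts without a symbol here. LRRN1 is a leucine-rich repeat protein of the neuronal cell surface, SOX11 a transcription factor of neural and mesenchymal progenitors, and GPR37 an orphan G-protein-coupled receptor known from brain. NES (nestin) is an intermediate filament of progenitor cells, and SNTB1 (beta-1-syntrophin) is an adaptor of the dystrophin complex beneath the plasma membrane. MBOAT1 is an acyltransferase that remodels membrane phospholipids, and PLK1 is a kinase that drives entry into and passage through mitosis. In macrophages, LPS is sensed by Toll-like receptors, which switch on inflammatory genes through NF-κB and other factors. Many other genes are turned down in the same response, among them genes of proliferation.

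**Figure D1:**
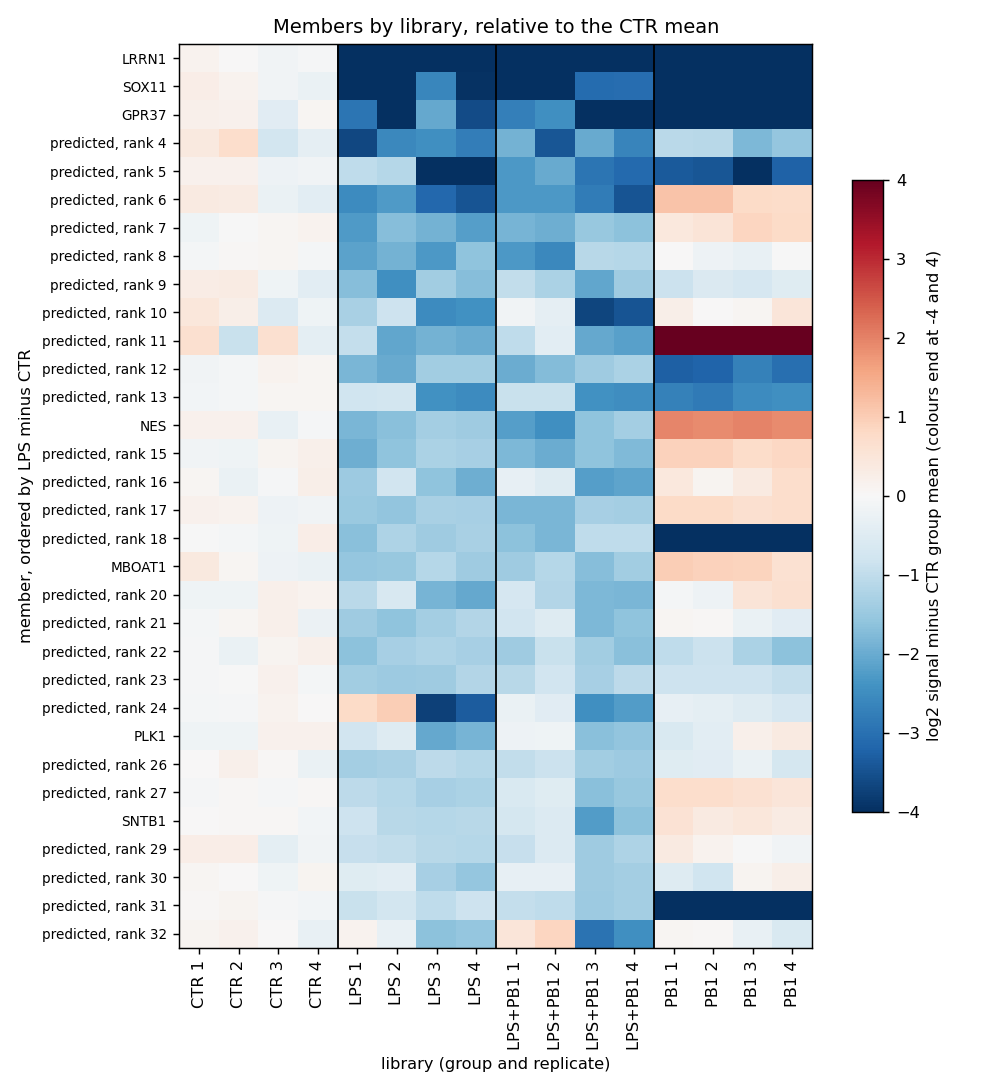
Log2 signal of the 32 members (rows, ordered by LPS minus CTR) in the 16 libraries (columns), relative to the mean of the 4 CTR libraries; colours end at -4 and 4. LPS and LPS + PB1 libraries lie below CTR in nearly all rows, rank 24 is above CTR in LPS replicates 1 and 2, and the PB1 libraries run in both directions.

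The members lay between 0.84 and 6.06 log2 units below CTR in LPS. The LPS minus CTR difference ranged from -6.06 to -0.84 with a median of -1.43, and LPS + PB1 minus CTR ranged from -5.89 to -0.86 with a median of -1.42. The medians of the 4008 rows past the level were 0.05 and 0.04. LPS + PB1 minus LPS ranged from -0.34 to 0.39 in the members. These 3 differences chose the members, so they are given as a description. In limma fits over all transcripts tested, a transcript was called when its fold change reached 1.5 and its adjusted p-value did not exceed 0.05. Fold changes from limma are on a TMM scale and differ slightly from the differences between group means. By that rule 29 of the 31 members tested were called lower in LPS than in CTR, where 6.82% of all transcripts were, and 26 of 31 in LPS + PB1, where 8.54% were. Nothing can be read from these counts, which the rule fixed in large part.

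The limit of -0.8 cut through a continuous range. The 3 members nearest to it, all without a symbol, had LPS minus CTR and LPS + PB1 minus CTR differences of -0.84 and -1.01, -0.95 and -0.86, and -0.87 and -1.19. Just outside, a predicted transcript had -0.76 and -1.03, TEAD4 had -0.84 and -0.75, and ITGA1 had -0.75 and -0.78.

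LRRN1 (chromosome 12, 18458125 to 18479460) was the member with the lowest LPS minus CTR difference. It had 83, 74, 66 and 70 reads in the CTR libraries, at most 1 read in any LPS or LPS + PB1 library and 0 in every PB1 library. Its signal in CTR was 17.5 ± 1.47 scaled units (SD, n = 4), and against a floor of 3 reads per library it was at least 24.6-fold lower in LPS, 24.9-fold lower in LPS + PB1 and 24.5-fold lower in PB1. LRRN1 was thus near 0 in all treated groups, and a further difference between them was not detectable at this depth.

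SOX11 (chromosome 3, 94225208 to 94226773) followed, with 88, 78, 64 and 59 reads in CTR. There were 2, 2, 11 and 4 reads in LPS, 0, 2, 8 and 8 in LPS + PB1, and 2, 0, 1 and 3 in PB1. The CTR libraries lay above all others, and PB1 was at least 24.1-fold below CTR. GPR37 (chromosome 1, 22011608 to 22026231) had 52, 50, 32 and 46 reads in CTR, 5, 2, 10 and 3 in LPS, and 6, 8, 1 and 2 in LPS + PB1. PB1 had no read of GPR37 in any library and was at least 15.04-fold below CTR. All 4 LPS + PB1 libraries therefore lay above the PB1 libraries for this receptor, by 1 to 8 reads.

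NES (chromosome 25, 1009703 to 1017364) had a signal of 96.4, 96.4, 69.9 and 82.3 scaled units in CTR, and of 24.2, 27.0, 33.5 and 31.6 in LPS. It was 18.4, 15.8, 28.3 and 33.2 in LPS + PB1 and 332, 319, 340 and 319 in PB1. Nestin thus took 3 levels that did not overlap, with PB1 at the top, CTR in the middle and both LPS groups at the bottom. The means were 86.2 ± 12.8 in CTR, 29.1 ± 4.24 in LPS, 23.9 ± 8.2 in LPS + PB1 and 328 ± 10.1 in PB1 (SD, n = 4).

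MBOAT1 (chromosome 2, 59293996 to 59354474) showed the same order of groups at a smaller distance. Its signal was 33.9, 27.7, 22.7 and 21.5 scaled units in CTR, 8.84, 9.14, 11.9 and 9.74 in LPS, 9.79, 11.7, 7.94 and 9.89 in LPS + PB1, and 51.6, 48.9, 47.8 and 39.3 in PB1. The LPS and LPS + PB1 libraries overlapped, with means of 9.91 ± 1.38 and 9.83 ± 1.54 (SD, n = 4).

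SNTB1 (chromosome 2, 135968086 to 136075849) had 65.9, 68.6, 67.8 and 61.6 scaled units in CTR and 37.5, 30.8, 29.96 and 30.4 in LPS. In LPS + PB1 it was 40.05 and 44.7 in the first pair but 14.0 and 21.2 in the second, so that the pairs lay above and below the LPS libraries. PB1 libraries had 97.6, 83.9, 90.9 and 82.3, all above CTR.

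PLK1 (chromosome 14, 6905711 to 6911202) was split between the pairs in both LPS groups. Its signal was 55.8, 56.7, 72.1 and 70.6 scaled units in CTR. The LPS libraries had 37.0 and 44.0 in the first pair and 15.4 and 17.4 in the second, and those of LPS + PB1 had 54.7 and 56.1 against 19.8 and 21.4. Replicates 1 and 2 of LPS + PB1 thus lay beside CTR, with a difference of -0.02 on the log2 scale, whereas in replicates 3 and 4 the difference was -1.79. PLK1 was the only named member not called in LPS + PB1 against CTR. PB1 had 41.9, 46.8, 73.7 and 80.9, which overlapped with CTR.

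**Figure D2:**
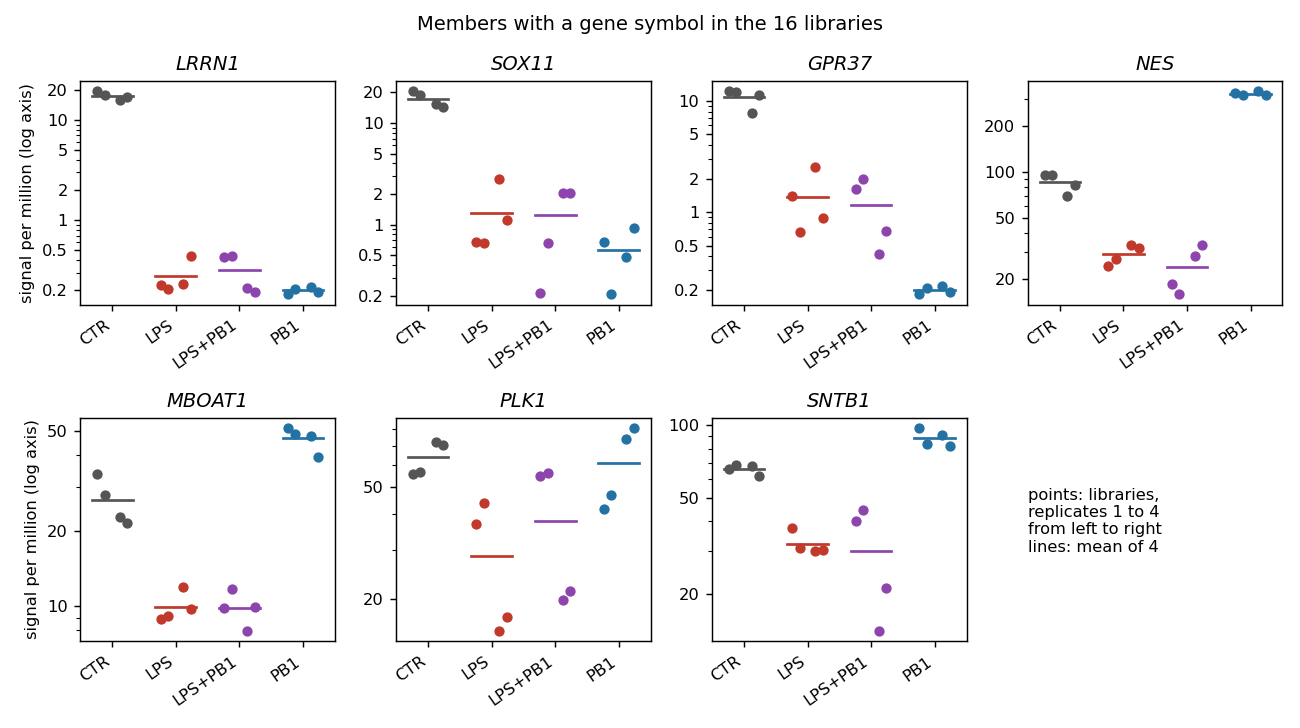
Scaled signal, as units per library total of 1000000 (log axis), of the 7 members with a gene symbol; points are libraries, replicates 1 to 4 from left to right within a group, and lines are means of 4. LRRN1, SOX11 and GPR37 are low in every treated group, NES, MBOAT1 and SNTB1 are highest in PB1, and PLK1 falls into pairs of replicates.

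Of the predicted transcripts, the 2 with the highest CTR signal were split between the pairs as well. XM_046920393.1 had 1000.2, 1030.2, 1152 and 1152 scaled units in CTR, 621 and 643 in the first pair of LPS, and 204 and 191 in the second. The values in LPS + PB1 were nearly the same, 580 and 581 against 199.9 and 192, and in PB1 they were 167, 153, 188 and 199. XM_040668785.2 had 606, 619, 709 and 643 in CTR. In LPS it was above CTR in the first pair, with 1092 and 1267, and far below it in the second, with 48.8 and 64.6. In LPS + PB1 it had 539, 469, 118 and 136, so that its membership rests on the mean of opposite differences of 0.94 and -3.59 in the 2 pairs of LPS. Over the 25 predicted members, the group means on the log2 scale, converted back, had medians of 70.5 scaled units in CTR, 11.1 in LPS, 11.4 in LPS + PB1 and 31.0 in PB1. One of them, singled out after its values were seen, reached the level only in PB1, with 294 to 352 reads there, 1 to 5 in CTR and at most 2 in LPS or LPS + PB1. Its lower value after LPS is a difference between libraries near the floor.

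The similar level in LPS and LPS + PB1 held within both pairs for few members. LPS + PB1 minus LPS lay within 0.4 for 15 of 32 members in the first pair, for 21 in the second, and for 12 in each of them. Of the 2757 rows past the level that lay within 0.4 over all 4 libraries, 82.4% also did so in both pairs. That share is not matched for level: the median LPS group mean was 10.5 scaled units in the members against 73.0 in all rows past the level. LPS + PB1 minus LPS had opposite signs in the 2 pairs in 20 members, and in 8 of these it was over 0.4 in both. It ranged from -1.23 to 1.01 in the first pair and from -1.50 to 1.58 in the second. LRRN1 had 1.01 and -0.67, GPR37 had 0.88 and -1.50, SNTB1 had 0.32 and -0.81, and SOX11 had -0.84 and 0.22. The values for LRRN1, GPR37 and SOX11 rest on at most 11 reads per library. NES had -0.59 and -0.09, PLK1 had 0.46 and 0.33, and MBOAT1 had 0.25 and -0.28. Between same-numbered libraries, LPS + PB1 was above LPS in 4 of 4 for 2 members and below it in 4 of 4 for 2, and the sign was mixed for 28. PLK1 was 1 of the former, with differences of 0.56, 0.35, 0.36 and 0.30. A level within 0.4 of LPS was thus seen in both pairs for 12 members, and for the other 20 it describes an average over the pairs.

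**Figure D3:**
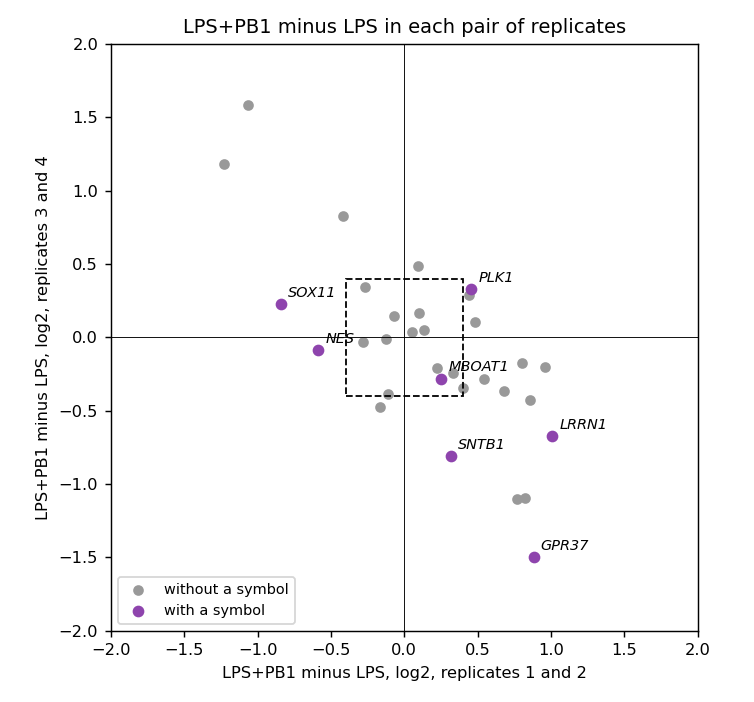
LPS + PB1 minus LPS (log2) of the 32 members in replicates 1 and 2 (x axis) and in replicates 3 and 4 (y axis); the dashed square marks 0.4 in either direction. 12 members lie inside the square. Opposite signs in the pairs were seen in 20 members, counted apart from the square: MBOAT1 is inside it with opposite signs, and NES and PLK1 are outside it with like signs.

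Since the pairs together chose the members, their counts within a pair restate the rule in part, and the limits leave unequal room. LPS minus CTR was at most -0.8 in 26 members in the first pair and in all 32 in the second, and LPS + PB1 minus CTR in 21 and 32. Both differences met the limit in both pairs for 20 members, and the whole rule held in both pairs for 9, of which MBOAT1 was the only one with a symbol. When the rule was applied to replicates 1 and 2 alone it chose 32 transcripts, 11 of them among the members. In replicates 3 and 4, which had not chosen them, 20 of these 32 were lower by at least 0.8 in LPS, where 5.19% of all rows past the level were, with a median of -0.98 against 0.16 for all rows. The difference between LPS + PB1 and LPS stayed within 0.4 in 17 of the 32, where 67.0% of all rows did. Chosen in replicates 3 and 4, 45 transcripts met the rule, 20 of them members. In replicates 1 and 2, 23 of the 45 were lower by 0.8 in LPS, against 5.34% of all rows, and 18 lay within 0.4 between LPS + PB1 and LPS, against 66.4%.

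The level of PB1 without LPS took part in the choice of members only through the minimum of 10 scaled units. Against CTR, 18 of the 32 were called, 12 of them lower and 6 higher, and 14 were not. Of all 4485 transcripts tested, 20.9% were called, 10.4% lower and 10.5% higher. These counts include 8 members whose direction the minimum favoured. Of these, 7 reached it only in CTR, among them LRRN1, SOX11 and GPR37, and 1 only in PB1. Among the other 24, 10 were called, 5 lower (20.8%) and 5 higher (20.8%), where 9.65% and 8.62% of the 3896 transcripts left by the same restriction were. Over all 32, the 4 PB1 libraries lay below all CTR libraries in 13 members and above them in 9 (28.1%). Of all transcripts 16.3% and 25.4% did so, and the upward share was near that of all transcripts. The 13 include the 7 members that reached the minimum only in CTR. Among the 24, PB1 libraries lay below all CTR libraries in 6 and above them in 8, as in 634 and 961 of the 3896 transcripts. This comparison shares its CTR libraries with the rule, which favours members with high CTR values.

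LRRN1, GPR37 and SOX11 had 0 to 3 reads in each PB1 library, and since they reached the minimum through CTR alone, the bounds above describe them and no test is given. NES rose by 1.86 log2 units (standard error 0.09, limma adjusted p = 8.21e-09) and MBOAT1 by 0.77 (0.13, limma adjusted p = 0.00046). SNTB1 was higher in 4 of 4 libraries, but its log2 fold change of 0.35 (0.07, limma adjusted p = 0.00207) lay under the fold limit, with a 95% interval of 0.19 to 0.51. The limma adjusted p for SNTB1 was 0.341 in a fit of all 16 libraries together and 0.0535 on means of the replicate pairs. PLK1 had -0.19 (0.21, limma adjusted p = 0.496), with an interval of -0.64 to 0.27. Of the 4 named members that reached the minimum beyond CTR, then, NES and MBOAT1 rose with PB1, and SNTB1 and PLK1 were not called.

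Of the 25 predicted members, 9 were called lower in PB1, of which 4 had reached the minimum only in CTR, 4 were called higher, of which 1 had reached it only in PB1, and 12 were not called. XM_046920393.1 fell by 2.69 (0.10, limma adjusted p = 1.7e-09), and XM_040668785.2 had -0.54 (0.08, limma adjusted p = 0.000207), below the fold limit. Without PB1 replicate 1 the latter passed that limit, at -0.59 (limma adjusted p = 0.000291). It was weaker in the fit of all 16 libraries together (limma adjusted p = 0.678), and had -0.33 in replicates 1 and 2 alone. The widest range was at the ends of the set, from the transcript with 109 to 148 reads in CTR and at most 3 in PB1, at least 41.7-fold lower, to the transcript seen almost only in PB1.

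**Figure D4:**
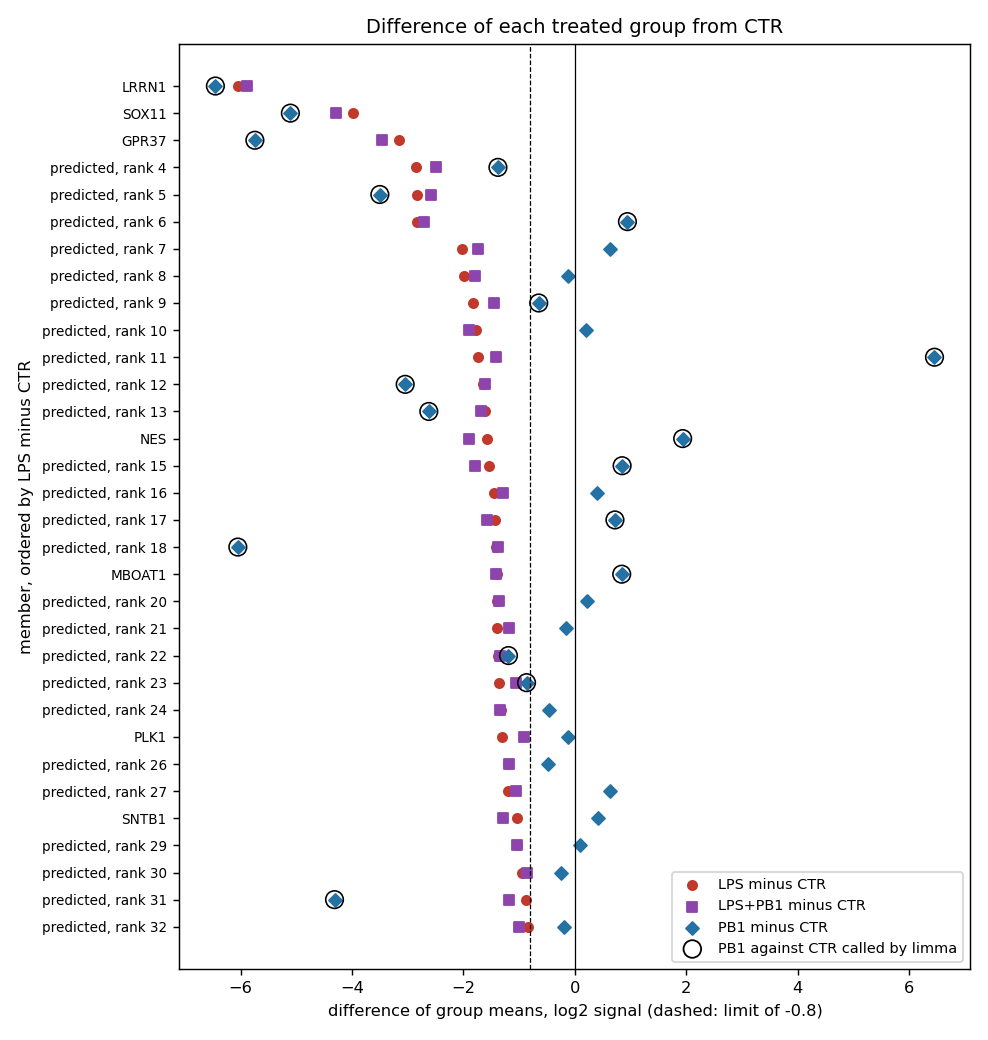
Difference from the CTR group mean (log2) of LPS, LPS + PB1 and PB1 for each member, ordered by LPS minus CTR; open circles mark the 18 members called in PB1 against CTR, including 8 that reached the minimum in 1 of these groups alone, and the dashed line marks the limit of -0.8. LPS and LPS + PB1 lie together by the rule, whereas PB1 runs from -6.45 to 6.46.

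Comparing LPS + PB1 with PB1 sets cells that received both beside cells with PB1 alone. In this comparison 29 members were tested, and LRRN1, SOX11 and GPR37 were too low in both groups. LPS + PB1 was called lower in 17 and higher in 4, and 8 were not called. Of all 4518 transcripts tested, 29.4% were called, 14.9% lower and 14.5% higher. Without the member that reached the minimum only in PB1, 16 of 28 were called lower and 4 higher, with a median log2 fold change of -1.04 against -0.0014 for the transcripts left by the same restriction. The comparison shares the LPS + PB1 libraries with the rule, which held their mean at least 0.8 below CTR. PB1 lay within 0.8 of CTR in 16 members and at least 0.8 above it in 5, NES, MBOAT1, SNTB1 and PLK1 among them. In these members the LPS + PB1 mean had to lie below the PB1 mean. The lower calls and the median thus restate the rule and the PB1 level in large part, and no separate effect of LPS is read from them.

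In NES, MBOAT1, SNTB1 and PLK1 the rule fixed the direction, so their differences are a description and no test is given. NES had -3.82 log2 units (standard error 0.18), the largest difference among the named members tested. MBOAT1 had -2.23 (0.15) and SNTB1 had -1.69 (0.34). For all 3 the 4 LPS + PB1 libraries lay below the 4 PB1 libraries, and within the pairs the differences were -4.26 and -3.43 for NES, -2.23 and -2.29 for MBOAT1, and -1.10 and -2.33 for SNTB1. PLK1 had -0.77 (0.40), with an interval of -1.66 to 0.13. Its difference was 0.32 in the first pair and -1.91 in the second. XM_046920393.1 had 0.97 (0.39, limma adjusted p = 0.0626), made of 1.86 in the first pair and 0.017 in the second. Without LPS + PB1 replicate 3 or replicate 4, it was called higher, at 1.23 and 1.26 (limma adjusted p = 0.0211 and 0.0148). XM_040668785.2, whose direction the rule also fixed, had -0.85 (0.48), and -1.24 without LPS + PB1 replicate 1.

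The gene lists drawn up for this work placed 3 of the 7 named members. PLK1 is on a list of 41 cell cycle and DNA replication genes, of which 14 were among the rows with a symbol and all 14 were tested. Between LPS and CTR, limma called 5 of the 14 lower and no gene higher, against 6.82% and 9.97% of all transcripts. Besides PLK1, which the rule chose on this contrast, these were CDC20, an activator of the anaphase-promoting complex, the spindle checkpoint kinases BUB1 and BUB1B, and the kinetochore protein CENPF. Their log2 fold changes were -1.02 (standard error 0.23, limma adjusted p = 0.00789), -0.66 (0.10, limma adjusted p = 0.000898), -0.69 (0.14, limma adjusted p = 0.00379) and -0.62 (0.10, limma adjusted p = 0.00103). The 9 not called included the spindle checkpoint gene MAD2L1 at -0.10, the centromeric histone CENPA at -0.45, and the replication genes MCM2, MCM6 and PCNA at -0.01, 0.25 and 0.74.

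In LPS + PB1 against CTR, 3 of the 14 were called lower, where 8.54% of all transcripts were, namely BUB1B at -0.68 (0.14, limma adjusted p = 0.00435), CENPA at -0.73 (0.25, limma adjusted p = 0.0477) and the cyclin-dependent kinase inhibitor CDKN1B at -0.63 (0.13, limma adjusted p = 0.00564). CDC20, BUB1 and CENPF had -0.42, -0.51 and -0.53 and were not called. For CENPF only the fold limit was missed (limma adjusted p = 0.00381), and for BUB1 the adjusted p was 0.0525 by limma. Both had all LPS + PB1 libraries below the CTR libraries, whereas those of CDC20 overlapped with CTR (limma adjusted p = 0.343). In PB1 against CTR, 1 of the 14, CCNE1, was called lower, which is near the 10.4% of all transcripts. The pairs differed here too: all 14 were lower in LPS than in CTR within replicates 1 and 2, with a median of -0.41, and 8 within replicates 3 and 4, where the differences ran from -2.12 for PLK1 to 1.64 for PCNA. Of the 4008 rows past the level, 2487 were lower within replicates 1 and 2 (median -0.09). Within replicates 3 and 4, 1357 were lower (median 0.17), so all rows shifted between the pairs in the same direction. For CDC20, LPS + PB1 minus CTR came to 0.37 in the first pair and -1.13 in the second.

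**Figure D5:**
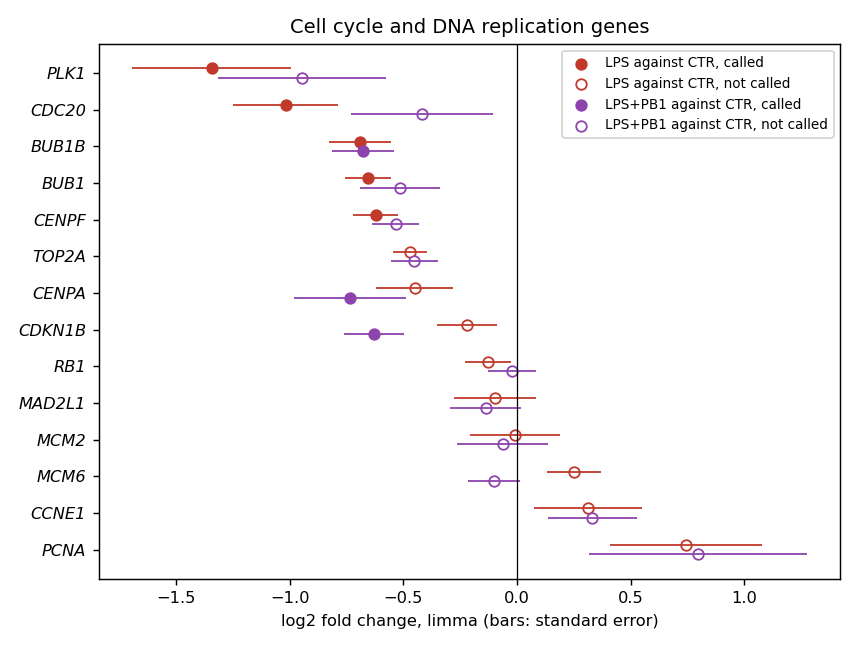
Log2 fold changes of 14 cell cycle and DNA replication genes in LPS and in LPS + PB1 against CTR (limma, bars are standard errors, filled points were called). The 5 called in LPS lie between -1.34 and -0.62, and PCNA lies highest at 0.74 and 0.80.

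NES was 1 of 3 genes found of a list of 16 neural markers. The other two were SOX2, at 3 reads or fewer in every library, and NEFM, with a mean signal of 0.731 scaled units in CTR and 7.86 in LPS. Nestin was thus the only one of the 3 with a CTR mean of at least 10 scaled units, and the list gives too few genes to describe a group. SOX11 is on a list of 77 developmental transcription factors, of which 21 were found and 10 tested between LPS and CTR. Of these, 4 were called lower and 1 higher, against 6.82% and 9.97% of all transcripts. In LPS + PB1 against CTR, by contrast, 1 of 11 was called lower, SOX11 itself, which is near the 8.54% of all transcripts. Another 4 of the 11 were called higher, and the share of all transcripts called higher there is not given here. The median log2 fold change there was 0.31 on the list against -0.0016 for all. In PB1 against CTR 6 of 11 were lower and 3 higher, against 10.4% and 10.5%. SOX11 is 1 of these 6, and it reached the minimum only in CTR, which favoured its direction. The neural markers and developmental factors include members that the rule chose on LPS minus CTR and on LPS + PB1 minus CTR. LRRN1, GPR37, MBOAT1 and SNTB1 were on none of the lists.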

How the data were processed

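According to the study's methods and the submitters' processing notes, low-quality reads were removed, and the rest were aligned to GRCg7b with HISAT2 and counted with HTSeq, and the authors compared groups with DESeq2. The deposited values are a scaled signal, not counts. Each equals a library's step (2.97 to 5.53) times the number of reads plus 1, rounded down, which held to within 1 unit for at least 99.91% of values. The sources used here do not describe this scaling. Reads were recovered by dividing by the step and served for floors (3 reads) and filtering only. Floors cover counting error only, whereas the intervals given are limma's 95% intervals from the spread between libraries.

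The members and gene lists were chosen with earlier results of these data known. Scaled units are the value divided by the library's sum (12543666 to 23107935) times 1000000. Each pair of groups was fitted with limma 3.58.1 (R 4.3.3, trend) on log2 signal after TMM normalization (own code), with a minimum of 10 reads in at least 4 libraries and Benjamini-Hochberg adjustment over all transcripts tested. A call required a fold change of 1.5 or more with an adjusted p up to 0.05. Same-numbered LPS and LPS + PB1 libraries deviated together (correlations over transcripts of 0.46 to 0.56), and no label explains the numbers. Different-numbered libraries were not compared, and both groups split into the same pairs, so a pairing by number is not shown. A block does not move a mean difference between balanced groups, so members within 0.4 stay under the fold limit there. The plan allowed for counts, and a count test was not run on this signal. Symbols came from the RefSeq table of GRCg7b by accession (1677 of 1682 NM and 0 of 4221 XM rows). All members with a symbol and the 2 without one that had the highest CTR signal are named. Whether strand was used in counting is not given in the sources used here, so overlapping genes may share reads. The alternatives were RLE factors, no filter, a pseudocount of 1, a block on the replicate number, a fit of all 16 libraries together, no fold limit, each library left out, means of the replicate pairs and, chosen after the data were seen, each pair alone.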

Additional observations from a re-analysis of the deposited data

Results flagged for a closer look

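In 2 of 36 groups of 4 libraries of the named members, 1 library stood far from the other three, and chance alone gives about 1 group in 20. These were SNTB1 in LPS, where replicate 1 had 37.5 scaled units, and LRRN1 in LPS, where replicate 4 had 0.443 scaled units, a single read against none in the others. The values of GPR37 differed in opposite directions after LPS without and with PB1. All LPS libraries lay below CTR, and all LPS + PB1 libraries lay above PB1, by 2.29 on the log2 scale. PB1 had 0 reads, and replicates 3 and 4 of LPS + PB1 had 1 and 2, under the floor of 3 reads, so a rise is not established. The difference between these effects was not tested, because the rule fixed the first of them, and it rests on at most 10 reads in any LPS, LPS + PB1 or PB1 library.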

How the results depend on the processing

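Leaving out each library in turn gave 28 to 35 transcripts by the rule, of which 22 to 32 were among the 32 members. SOX11, NES and PLK1 no longer met it without LPS + PB1 replicate 3 or 4 or LPS replicate 1 (SOX11 and PLK1 also without LPS replicate 2). GPR37 dropped out without LPS replicate 2 or 4, GPR37 and SNTB1 without LPS + PB1 replicate 1 or 2, and LRRN1 without LPS replicate 4. MBOAT1 met it in every such setting. TMM scaling gave 35 and reads without the added read 34, both with all 32 members, a level minimum of 20 gave 23, and the pairs alone gave 32 (11 members) and 45 (20 members). PB1 against CTR called 17 to 23 members and LPS + PB1 against PB1 called 15 to 24 under all settings run on all members tested. The lowest counts, 17 and 15, came from the fit on means of the replicate pairs. With each library left out the counts were 18 to 21 and 18 to 22. Restricted to members that did not reach the level through 1 compared group alone, a choice made after seeing the data, they were 10 of 24 and 20 of 28. Same-numbered libraries of these 2 comparisons, unlike LPS + PB1 and LPS, did not deviate together in every pair (correlations over transcripts of 0.02 to 0.27 and -0.09 to 0.04), so the numbers are not taken to pair these samples. A block on the replicate number gave 18 and 22 called members, against 18 and 21 without it. Within replicates 3 and 4 alone, PLK1 in PB1 against CTR turned to 0.012 and XM_046920393.1 in LPS + PB1 against PB1 to -0.039. Within replicates 1 and 2 alone, PLK1 and XM_040668785.2 in LPS + PB1 against PB1 turned to 0.42 and 0.093. The cause was not tested. The planned count tests on recovered reads were not run. Depth limits LRRN1, SOX11 and GPR37, with at most 11 reads in any treated library, and the predicted member seen in PB1, with at most 5 reads in any other library.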
